A study of Homo sapiens with 2 samples.

Results

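The TNF superfamily and the regulators of NF-kB were examined as a group of genes in MKN1 cells, a long-established line from a human gastric cancer. Members were chosen by a rule on gene symbols, with earlier results of these data known. It took probe sets with a single symbol of a TNF superfamily ligand or receptor, a TRAF adaptor, an IKK, NF-kB or IkB protein, a cIAP ubiquitin ligase or a TNF-induced protein. The rule found 64 probe sets for 64 genes, of 21448 probe sets and 17687 named genes in all. One MKN1 line carried a pBABE-puro retroviral plasmid for RHOA Y42C, a gastric cancer substitution in a small GTPase of the actin cytoskeleton, and the other line carried the same plasmid with wild-type RHOA. Both lines were puromycin selected and grown in RPMI medium with serum, and neither parental nor empty-vector cells were analysed here. Each line gave 1 array, so no difference below has a replicate error, a standard error or a test, and each compares these 2 lines only.

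TNF superfamily ligands are mostly membrane-bound trimers that engage receptors on the same or other cells. Receptors with a death domain can assemble a caspase-activating complex, and decoy receptors bind ligand without signalling. The remaining receptors recruit TRAF adaptors directly, and cIAP ligases come with the adaptors. These complexes activate the IKK kinase, which marks IkB proteins for destruction and frees NF-kB dimers such as RELA with NFKB1. A slower, non-canonical branch runs from MAP3K14 through CHUK to processing of NFKB2, whose product pairs with RELB. NFKBIA and TNFAIP3 are NF-kB target genes whose products switch the pathway off. In epithelial cancers these genes set the balance between inflammatory output and death receptor signalling.

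Values are the deposited signals, taken as log2 from their range, since the log base is not given in the sources used here; differences are Y42C minus wild-type. A gene was taken as measured above the minimum if either array put it at or over the 95th percentile of 349 olfactory receptor genes, a level of 5.14 in the Y42C array and 5.17 in the wild-type array. RHOA itself stood at 16.30 in the Y42C array and 16.47 in the wild-type array, and since both lines carry a RHOA vector this does not check the labels. Of 10 epithelial markers 8 were above the minimum, with KRT8 at 17.94 in the Y42C array and 17.96 in the wild-type array. The epithelial marker CDH1, which encodes E-cadherin, was below the minimum in both arrays (3.86 in Y42C, 3.92 in wild-type). Leukocyte markers reached the minimum in 7 of 14 cases and the fibroblast and endothelial markers in 4 of 9. Among leukocyte markers, CD14 was 3.43-fold lower in the Y42C array, the only one past 2-fold, and PTPRC, the pan-leukocyte antigen, stood at 5.39 in the Y42C array and 4.61 in the wild-type array. Of the 4 fibroblast and endothelial markers above the minimum, COL1A2 and VWF were higher (1.04 and 0.80) and COL1A1 and PECAM1 lower (-0.21 and -0.07). The part of these markers in the differences of members was not tested.

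Few members differed by much. Of the 64 members, 51 were above the minimum, and 4 of these had a Y42C signal 2-fold or more over the wild-type signal, and 3 had the opposite. The 4 higher members make up 7.84% of the 51, where 7.46% of all 11802 genes above the minimum were that much higher. The 3 lower members make up 5.88%, where 9.80% of all genes were that much lower. Both shares are near or below the background, so the count of members past 2-fold is not a result about these genes as a group. Their median difference was 0.09, and that of all genes above the minimum was -0.07. Their median difference in either direction was 0.38, against 0.48 for all genes. Of the 51 members 33 lay within 0.5 of 0, as did 6087 of all 11802 genes above the minimum.

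The 7 members past 2-fold by their measured values were the ligands TNFSF15 (higher), TNFSF10 and TNFSF13 (lower), the NF-kB subunit RELB (higher), the kinase subunit IKBKG (lower), and TNFAIP3 and TNFAIP8 (both higher). TNFAIP8 (1.06) lay just inside the threshold on the higher side, and TNFRSF21 (0.90) just outside it. On the lower side IKBKG (-1.03) lay just inside, and TNFRSF1A (-0.98) and RELA (-0.95) just outside. Set against genes of like signal level, TNFSF15 and TNFSF10 were the 2 members at least 2 spreads from the local median, a spread being the scaled median absolute deviation within 1 of 20 level bins. Of all genes above the minimum, 6.91% lay that far out.

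**Figure D1:**
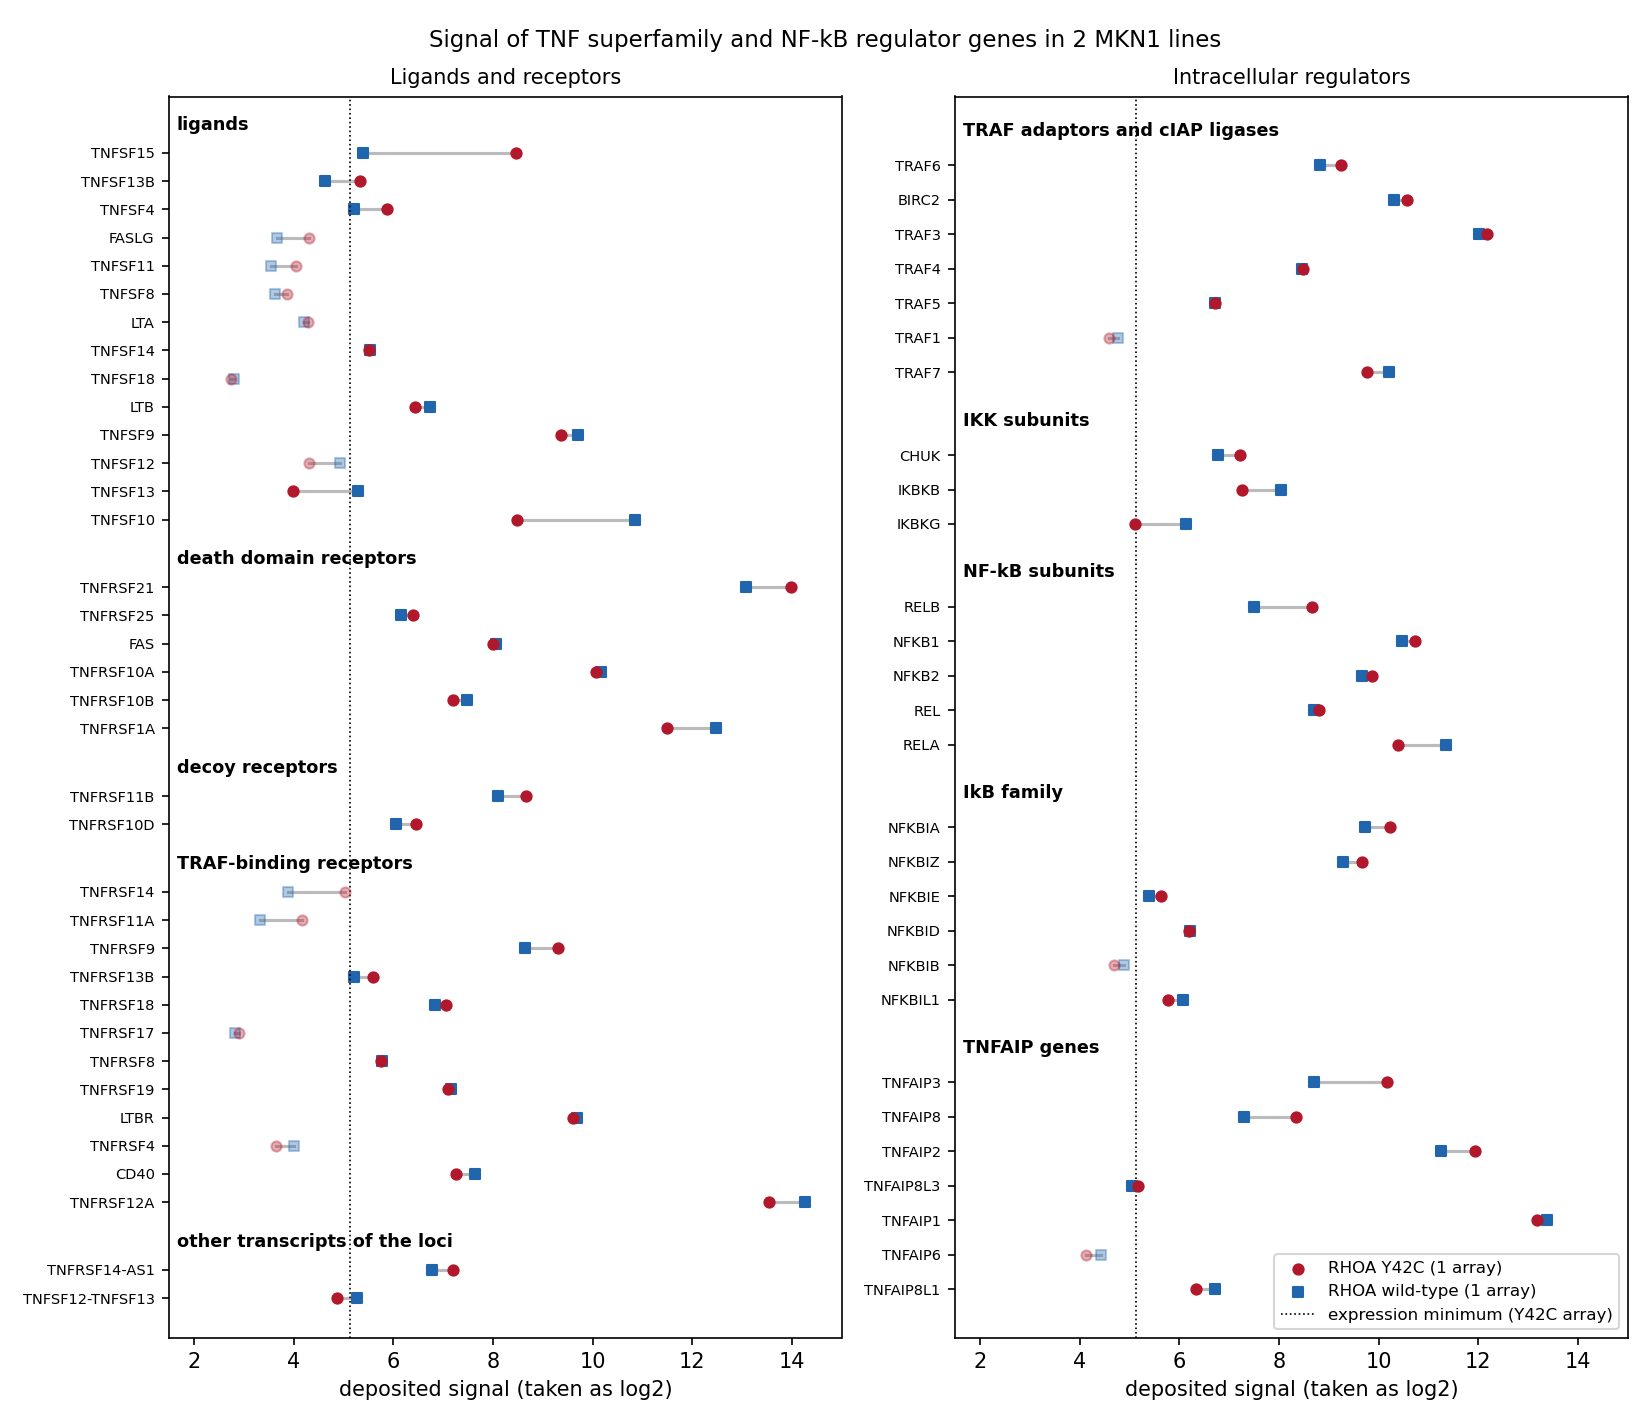
Deposited signal, taken as log2, of all 64 members in the RHOA Y42C array (red circles) and the RHOA wild-type array (blue squares), grouped by role, with 1 array per line. Faint symbols mark the 13 members below the minimum in both arrays, and the widest gaps are those of TNFSF15 (8.47 in Y42C, 5.39 in wild-type) and TNFSF10 (8.48 in Y42C, 10.86 in wild-type). The dotted line is the minimum of the Y42C array.

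**Figure D2:**
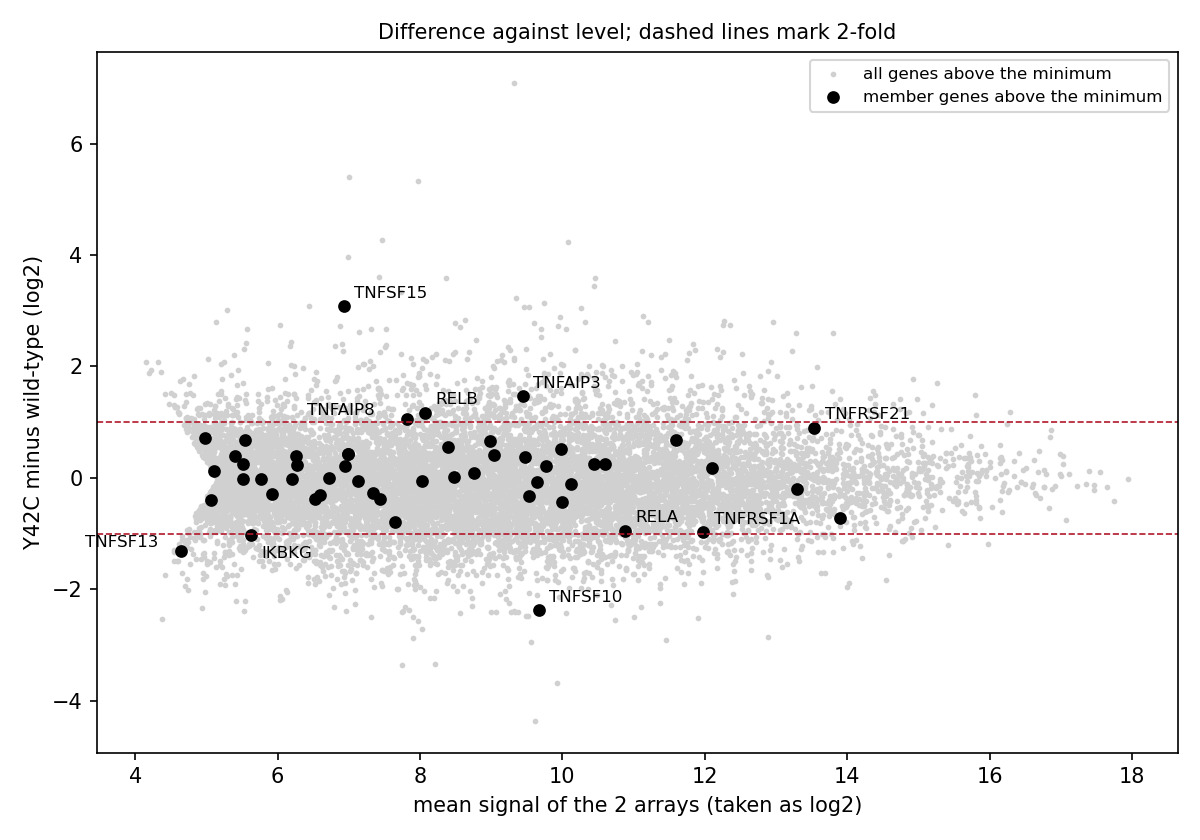
Difference between the arrays, Y42C minus wild-type on the log2 scale, against the mean signal of both arrays, for all 11802 genes above the minimum (grey) and the 51 members among them (black). Most members lie between the dashed 2-fold lines, and TNFSF15 (3.08) and TNFSF10 (-2.38) stand farthest out.

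Among the ligands, the members with the largest differences of the whole group lay at opposite ends. TNFSF15, also called TL1A, a ligand of the death domain receptor TNFRSF25, had a signal of 8.47 in the Y42C array and 5.39 in the wild-type array. It was 8.46-fold higher, ranked 15 among the 11802 genes by positive difference, and lay 4.27 spreads above genes of like level. Its wild-type value was close to the minimum of that array, so the size of this fold rests on a dim value. TNFSF10, the apoptosis-inducing ligand TRAIL, had a signal of 8.48 in the Y42C array and 10.86 in the wild-type array. It was 5.21-fold lower and lay 2.80 spreads below genes of like level (-2.80). Both of its values were well above the minimum.

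The third ligand past 2-fold was dim. TNFSF13, known as APRIL, a B-cell survival factor, stood at 3.98 in the Y42C array and 5.30 in the wild-type array. The Y42C value is below the minimum, so TNFSF13 was at least 1.12-fold lower. With dim values set to the minimum its difference was -0.16, inside 2-fold. It shares its locus with TNFSF12 (4.30 in Y42C, 4.92 in wild-type, both below the minimum) and with the readthrough transcript TNFSF12-TNFSF13 (4.87 in Y42C, 5.27 in wild-type), and probes of these transcripts may overlap. All 3 had the lower value in the Y42C array.

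The other ligands differed less or were not above the minimum. TNFSF9, the ligand 4-1BBL, stood at 9.37 in the Y42C array and 9.70 in the wild-type array, and LTB, which forms the membrane lymphotoxin complex, at 6.44 in Y42C and 6.74 in wild-type. TNFSF14, known as LIGHT, was nearly equal, at 5.51 in Y42C and 5.53 in wild-type. TNFSF4, the ligand OX40L, had 5.88 in the Y42C array and 5.20 in the wild-type array. TNFSF13B, the B-cell factor BAFF, had 5.33 in Y42C and 4.62 in wild-type, at least 1.12-fold higher. The remaining 6 ligands were below the minimum in both arrays: FASLG (Fas ligand), LTA (lymphotoxin alpha), TNFSF8 (CD30 ligand), TNFSF11 (RANKL), TNFSF12 (TWEAK) and TNFSF18 (GITR ligand). The ligand genes TNF and CD40LG had no probe set under that single symbol and were not analysed here.

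The 250 bases before the annotated start of TNFSF10 are shown because it had the largest negative difference among members. The sequence is from RefSeq (GRCh38.p14), 5' to 3' on the strand of the gene, and no capitals appear because neither form of the kB motif searched for in the promoters matched in it.
TNFSF10, chr3:172523431-172523680, minus strand: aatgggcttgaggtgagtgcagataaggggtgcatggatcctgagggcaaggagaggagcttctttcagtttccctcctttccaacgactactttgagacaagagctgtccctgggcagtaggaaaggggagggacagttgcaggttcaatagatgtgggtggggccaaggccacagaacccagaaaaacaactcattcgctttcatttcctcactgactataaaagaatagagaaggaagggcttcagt

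Of the 20 receptors 16 were above the minimum, and 0 of these were past 2-fold in either direction. Of all genes above the minimum 7.46% were that much higher and 9.80% that much lower. With 16 receptors this count is not a result about them as a group. The differences of the receptors ran from -0.98 to 0.90, with a median of -0.04. TNFRSF1A, the main TNF receptor of most cells, had a signal of 11.49 in the Y42C array and 12.47 in the wild-type array, 1.97-fold lower. TNFRSF21, death receptor 6, stood at 13.99 in the Y42C array and 13.09 in the wild-type array, 1.87-fold higher. These were the lowest and the highest difference among the death domain receptors. FAS, the receptor of FASLG, was nearly equal in both arrays, with a difference of -0.06. TNFRSF25, a receptor of TNFSF15, differed by 0.23, with 6.39 in the Y42C array and 6.16 in the wild-type array. The 8.46-fold difference of TNFSF15 thus stood beside a difference of 1.17-fold for TNFRSF25. TNFRSF6B, a decoy receptor of TNFSF15, had no probe set under that single symbol.

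The TRAIL receptors with a probe set did not share the difference of their ligand. TNFRSF10A and TNFRSF10B, the death domain receptors of TRAIL, had 10.06 and 7.20 in the Y42C array, against 10.18 and 7.48 in the wild-type array. The decoy receptor TNFRSF10D had 6.46 in Y42C and 6.06 in wild-type, and the decoy receptor TNFRSF10C had no probe set under that single symbol. TNFRSF11B, osteoprotegerin, a secreted decoy for TNFSF11 and TRAIL, had 8.67 in Y42C and 8.11 in wild-type. Their differences lay between -0.28 (TNFRSF10B) and 0.56 (TNFRSF11B), while TNFSF10 differed by -2.38. The TNFRSF10 receptors are close relatives, and probes that cross-react cannot be told from these values.

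Among the receptors that bind TRAFs directly, 8 of 12 were above the minimum, with a median difference of -0.04. TNFRSF12A, the TWEAK receptor Fn14, was the lowest, at 13.54 in the Y42C array and 14.27 in the wild-type array (1.66-fold lower). CD40, a costimulatory receptor of antigen-presenting cells, followed with 7.25 in Y42C and 7.63 in wild-type. TNFRSF9, the receptor 4-1BB, was the highest, at 9.31 in Y42C and 8.65 in wild-type (1.58-fold higher), followed by TNFRSF13B, the receptor TACI of BAFF and APRIL, at 5.59 in Y42C and 5.20 in wild-type. LTBR, the lymphotoxin beta receptor, was nearly equal (9.61 in Y42C, 9.69 in wild-type), as were TNFRSF19, known as TROY, and TNFRSF8, known as CD30 (-0.06 and -0.02). TNFRSF18, the receptor GITR of T cells, differed by 0.22. TNFRSF4, TNFRSF11A, TNFRSF14 and TNFRSF17 did not reach the minimum in either line. TNFRSF14, the receptor of LIGHT, had 5.03 in Y42C and 3.88 in wild-type and gets no fold for that reason. The antisense transcript TNFRSF14-AS1 had 7.20 in Y42C and 6.77 in wild-type.

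Adaptors next to the receptors were close to even. Of the TRAF adaptors and cIAP ligases, 6 of 7 were above the minimum, and all 6 lay within 0.5 of 0, from -0.44 (TRAF7) to 0.41 (TRAF6). Of all 11802 genes above the minimum 6087 lay that close, so with 6 genes the count does not set this list apart. TRAF6, which serves interleukin and CD40 signalling, had 9.24 in the Y42C array and 8.83 in the wild-type array. TRAF7, a divergent member of the family, had 9.77 in Y42C and 10.21 in wild-type. TRAF3, which holds MAP3K14 in check, had 12.18 in Y42C and 12.01 in wild-type, and the ubiquitin ligase BIRC2 had 10.57 in Y42C and 10.32 in wild-type. TRAF5 (6.72 in both) and TRAF4 (8.49 in Y42C, 8.47 in wild-type) were equal or nearly so. TRAF1, an NF-kB target, was below the minimum in both arrays (4.58 in Y42C, 4.77 in wild-type).

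The 3 IKK subunits did not all differ in 1 direction. IKBKG, the regulatory subunit NEMO, had 5.11 in the Y42C array and 6.14 in the wild-type array, and since the Y42C value is just below the minimum it was at least 2.01-fold lower. After each array was centred on its median the difference was -0.97, inside 2-fold. IKBKG has a near-identical pseudogene copy, IKBKGP1, so its probe set may read both. IKBKB, the kinase of the canonical pathway, had 7.26 in Y42C and 8.05 in wild-type (1.73-fold lower). CHUK, the kinase used by the non-canonical branch, had 7.21 in Y42C and 6.78 in wild-type (1.35-fold higher).

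The NF-kB subunits differed in opposite directions at their ends. RELB had a signal of 8.66 in the Y42C array and 7.49 in the wild-type array, 2.25-fold higher, and lay 1.68 spreads above genes of like level. RELA had 10.40 in the Y42C array and 11.35 in the wild-type array, 1.93-fold lower, and lay at -1.22 spreads. The remaining subunits were close to even, with NFKB1 at 10.73 in Y42C and 10.48 in wild-type, NFKB2 at 9.87 in Y42C and 9.66 in wild-type, and REL at 8.80 in Y42C and 8.71 in wild-type. RELB and RELA thus differed in sign between the lines, each by less than 2 spreads of genes of like level.

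The IkB family showed differences of less than 1.5-fold. Of all genes above the minimum 17.8% were 1.5-fold or more higher and 23.4% lower, so with so few genes this does not set the family apart. NFKBIA, the main inhibitor and an early target gene of NF-kB, had 10.24 in the Y42C array and 9.72 in the wild-type array (1.43-fold higher). NFKBIZ, an atypical nuclear IkB, had 9.67 in Y42C and 9.29 in wild-type. NFKBIE, a cytoplasmic inhibitor, had 5.64 in Y42C and 5.40 in wild-type, and NFKBID, another nuclear member, had 6.19 in Y42C and 6.21 in wild-type. NFKBIL1, which is similar to IkB in sequence, had 5.78 in Y42C and 6.07 in wild-type, and NFKBIB was below the minimum in both arrays (4.68 in Y42C, 4.88 in wild-type). BCL3 and BIRC3 had no probe set under that single symbol.

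The TNF-induced genes held the higher members other than TNFSF15 and RELB. TNFAIP3, the ubiquitin-editing enzyme A20 that limits NF-kB, had a signal of 10.17 in the Y42C array and 8.71 in the wild-type array, 2.75-fold higher, at 1.94 spreads. TNFAIP8, a regulator of cell survival, had 8.35 in Y42C and 7.29 in wild-type, 2.08-fold higher, at 1.77 spreads, but 0.99 on the log2 scale with a constant added to the linear values. TNFAIP2, a protein linked to membrane protrusions, had 11.94 in Y42C and 11.26 in wild-type (1.60-fold higher). TNFAIP1, a substrate adaptor of a cullin ubiquitin ligase that is known to target RhoA, had 13.19 in Y42C and 13.39 in wild-type, and TNFAIP8L1 had 6.34 in Y42C and 6.72 in wild-type. TNFAIP8L3 lay close to the minimum in both arrays (5.16 in Y42C, 5.04 in wild-type), and TNFAIP6 was below it in both.

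Promoter sequence is a feature that the choice of members did not use. RefSeq promoter windows (GRCh38.p14), from 250 bases before to 50 bases after an annotated start, were found for 50 of the 64 members, 79 windows in all. They were searched on both strands for the kB consensus and for a T-rich form of it (GGG, then any 2 bases, then TTTCC), and all 13 T-rich matches of members were also matches of the consensus. The kB consensus matched in 18 of 50 members (36%), where it matched in 7.09% of the 27305 genes in the table and in 9.05% of those measured here above the minimum. The T-rich form matched in 10 members (20%), where it matched in 2.33% of all genes. Members have more windows per gene than the table has, but per window the shares for the consensus were 29.1% of members' windows and 5.91% of all windows. A match is a stretch of letters and says nothing of binding.

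The stretches below hold T-rich matches in members above the minimum, with 1 stretch for each such gene. They are shown because these members include subunits and inhibitors of NF-kB itself. Each is 30 bases from RefSeq (GRCh38.p14), 5' to 3' on the strand of the gene, and capitals mark the kB matches on either strand, overlapping ones joined. NFKB2 has a further T-rich match, from -21 to -12 of another annotated start, that is not shown.
TNFAIP3, chr6:137867188-137867217, plus strand: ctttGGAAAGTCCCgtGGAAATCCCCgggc
NFKBIA, chr14:35404811-35404840, minus strand: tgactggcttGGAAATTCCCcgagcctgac
NFKB1, chr4:102501300-102501329, plus strand: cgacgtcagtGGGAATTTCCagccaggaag
NFKB2, chr10:102394490-102394519, plus strand: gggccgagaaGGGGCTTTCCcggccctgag
REL, chr2:60881518-60881547, plus strand: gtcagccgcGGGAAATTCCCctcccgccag
NFKBIZ, chr3:101827757-101827786, plus strand: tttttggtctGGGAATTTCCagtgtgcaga
TRAF3, chr14:102777406-102777435, plus strand: cgggcgcgccGGGGATTTCCagcgcgcgag
TNFRSF9, chr1:7940893-7940922, minus strand: agctgtggtGGGAATTTCCCatgagacccc
LTB, chr6:31582492-31582521, minus strand: aggggtgtgcGGAAAGTCCCagccaggtgt

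The stretch of TNFAIP3 holds 2 matches between bases -67 and -46 from its annotated start, and TNFAIP3 was 2.75-fold higher in the Y42C array. The other 8 genes with such a stretch all differed by less than 2-fold, from LTB (-0.30) to TNFRSF9 (0.66). Only 7.46% of all genes above the minimum were 2-fold or more higher and 9.80% lower, so this count does not set the 8 genes apart. The match in NFKBIA lies from -81 to -72, and in NFKB1 from -49 to -40. Of the 41 members above the minimum with a window, the 15 with a kB match had a median difference of 0.17, ranging from -1.32 (TNFSF13) to 1.46 (TNFAIP3). The lower end of this range rests on TNFSF13, whose Y42C value of 3.98 is below the minimum. Its difference was -0.16 with dim values set to the minimum, and LTB (-0.30) came next by measured value. The 26 without a match had a median of 0.07, ranging from -2.38 (TNFSF10) to 3.08 (TNFSF15). The window of TNFSF15 lies at an annotated start inside the gene, and windows at its first start and for RELB were not used here. The upper end of the range without a match thus rests on TNFSF15, which its window cannot class, and TNFAIP8 (1.06) came next. Whether a match goes with the difference was not tested.

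**Figure D3:**
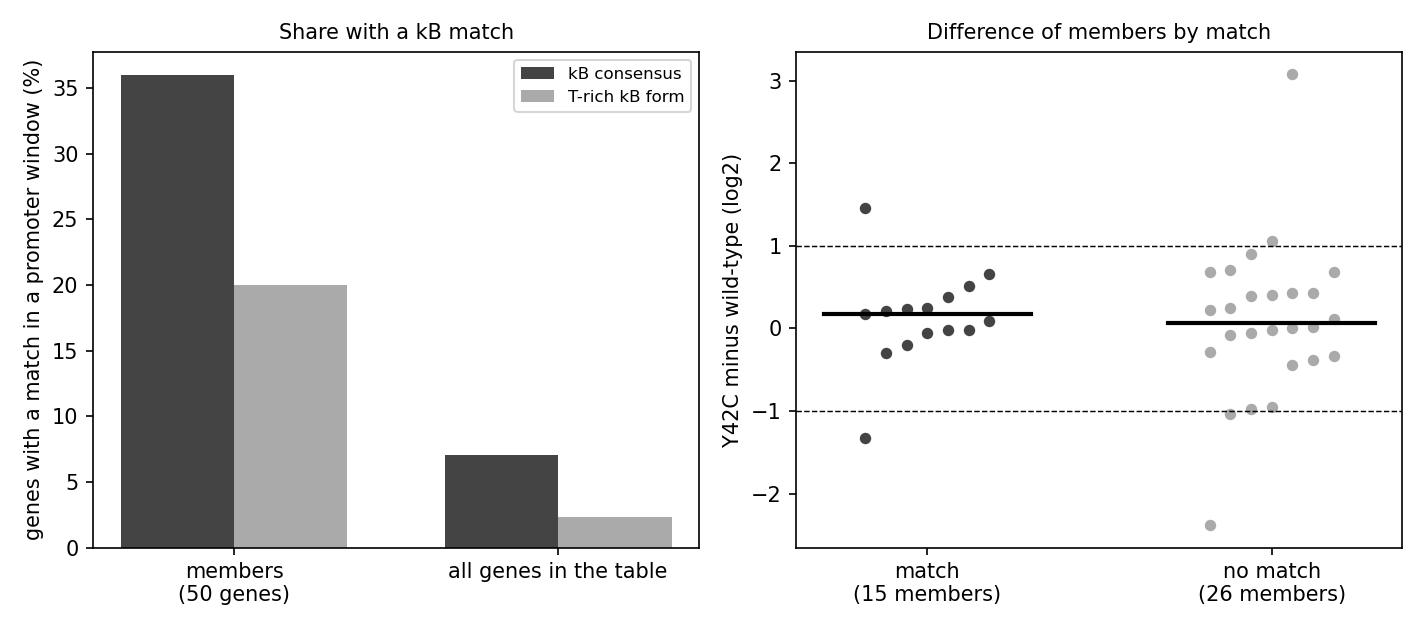
Left, share of genes (percent) with a match to the kB consensus or its T-rich form in a RefSeq promoter window, for 50 members and for all genes in the table, as bars from 0. Right, difference (Y42C minus wild-type, log2) of the members above the minimum with a kB match (15) and without one (26), with black lines at the medians of 0.17 and 0.07 and dashed lines at 2-fold.

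Genes that act with the members in the same pathway were counted from lists of adaptors and kinases, of ubiquitin editors and inhibitors, and of NF-kB target genes. Of 19 receptor-complex and upstream kinase genes above the minimum, 1 was past 2-fold in the higher direction and 1 in the lower, with a median difference of -0.26. That is 5.26% in each direction, below the 7.46% and 9.80% of all genes, so the count does not set this list apart. The higher gene was MAP3K14, the kinase NIK of the non-canonical branch, at 9.01 in the Y42C array and 7.63 in the wild-type array (2.60-fold). The lower gene was TBK1, a kinase of innate sensing related to IKK, at 8.82 in the Y42C array and 10.61 in the wild-type array (3.46-fold). Of the genes of the non-canonical branch named here, MAP3K14 and RELB were past 2-fold, whereas CHUK (0.43), NFKB2 (0.21), TRAF3 (0.17) and BIRC2 (0.25) were not. These genes were put together after their values were seen, and 7.46% of all genes were that much higher. They are therefore not a result about the branch.

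Of 16 ubiquitin editors and negative regulators above the minimum, 0 were past 2-fold in the higher direction and 1 in the lower (6.25%, against 9.80% of all genes), with a median of -0.25. The lower gene was RNF31, the catalytic subunit HOIP of the linear ubiquitin ligase, at 6.88 in the Y42C array and 8.08 in the wild-type array (2.30-fold). Its partners were nearer to even, with SHARPIN differing by 0.06 and RBCK1 by -0.24.

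Of 21 NF-kB target genes above the minimum, 5 were past 2-fold in the higher direction and 3 in the lower by their measured values, with a median of 0.40. These are 23.8% and 14.3% of the list, beside 7.46% and 9.80% of all genes, whose median was -0.07, but the list was chosen with earlier results of these data known. For CXCL5 (5.45 in Y42C, 4.30 in wild-type) and IL6 (4.73 in Y42C, 5.89 in wild-type) the dimmer value is below the minimum. CXCL5 was therefore at least 1.21-fold higher and IL6 at least 1.69-fold lower, and neither is shown to be past 2-fold. Both are counted in the shares above, so the shares are not a result about the list. CXCL5, IL23A, LIF and PTGS2 passed the minimum only through the Y42C array, where they were higher, and IL6 only through the wild-type array. The median of the list includes these genes. The gelatinase gene MMP9 had 10.97 in the Y42C array and 7.74 in the wild-type array (9.38-fold higher). PLAU, the urokinase plasminogen activator, had 9.91 in Y42C and 7.21 in wild-type (6.50-fold higher). OLR1, a scavenger receptor for oxidised lipoprotein, had 14.58 in Y42C and 11.98 in wild-type (6.06-fold higher). The transcription factor IRF1 had 6.07 in Y42C and 8.09 in wild-type (4.06-fold lower). The chemokine genes CXCL1, CXCL2 and CXCL3 were below the minimum in both arrays, and CXCL8 was close to it (5.64 in Y42C, 5.33 in wild-type). The target genes past 2-fold did not all differ in 1 direction, and many of them answer to other transcription factors as well.

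**Figure D4:**
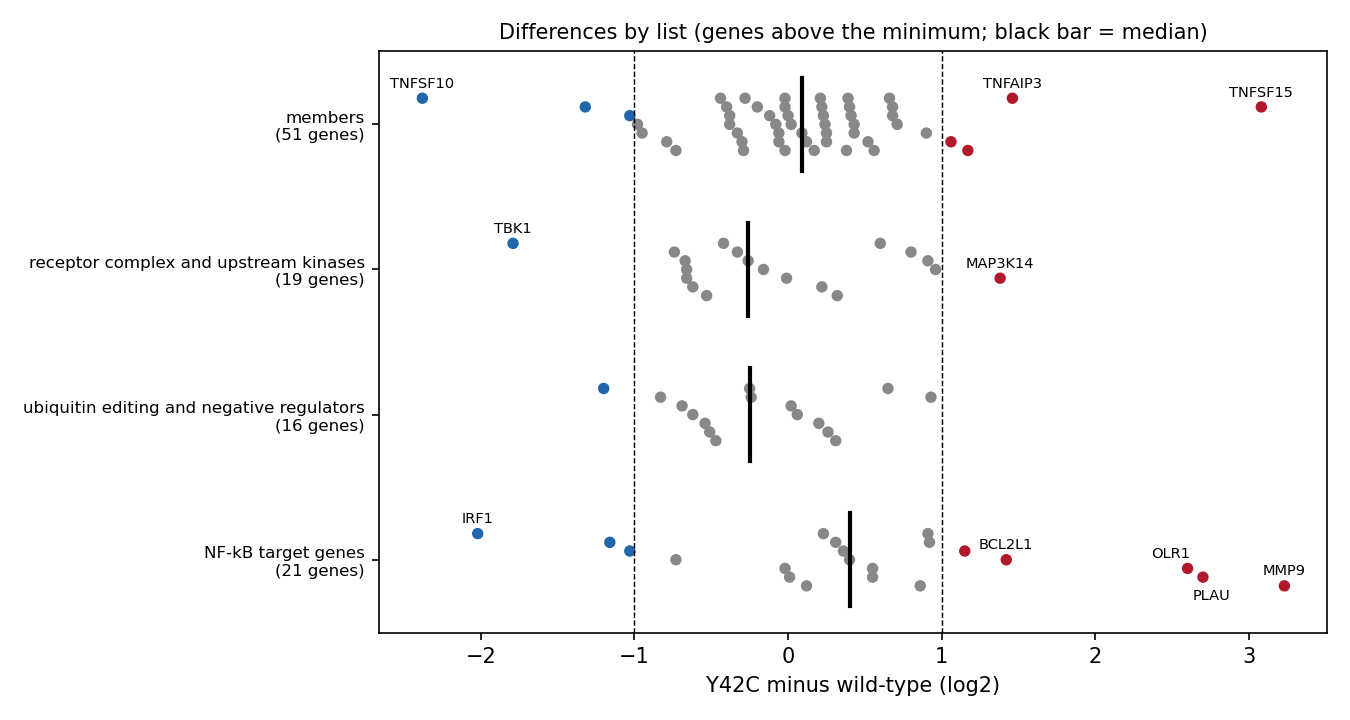
Difference (Y42C minus wild-type, log2) of each gene above the minimum for the 51 members and for the companion lists of the pathway, with red points 2-fold or more higher and blue points 2-fold or more lower by measured value, and black bars at the medians. Members have a median of 0.09, and NF-kB target genes reach from IRF1 (-2.02) to MMP9 (3.23).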

How the data were processed

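RNA of 2 MKN1 lines was measured on 1 Affymetrix array each. The authors deposited 1 value per probe set, taken here as log2 signal from the range of 2.23 to 18.16. Per the submitters' processing notes the software was Affymetrix Expression Console. Neither its version nor how background and scale were treated is given in the sources used here. Medians were 6.36 in the Y42C array and 6.42 in the wild-type array, and the deposited values were used without further scaling. Precision is limited by the number of arrays.

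The platform annotation gave 1 symbol for 17709 probe sets, several for 0, and 3739 are unnamed here. All named genes matched RefSeq through Entrez identifiers, with 0 symbols changed. Where a gene had several probe sets their mean was taken, but each member had 1. A fold written as at least compares the brighter value with the other array's minimum. No test was made, with 1 array per line. Named were all members past 2-fold, up to 2 at each end of each role list, the kinase, subunit and IkB lists, and companion genes past 2-fold (in the list of NF-kB targets, the 4 largest differences); the remaining genes named were chosen after their values were seen. Members and lists were chosen with earlier results of these data known. Of 72 genes in the role lists, 10 had no probe set under that single symbol and were not analysed here. The code was checked on simulated data. Calculations used pandas 2.3.3 with NumPy 2.4.6 in Python 3.11.15, the lowess trend statsmodels 0.14.6, and plots matplotlib 3.10.9.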

Additional observations from a re-analysis of the deposited data

How the results depend on the processing

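The alternatives were 3 scalings between arrays, other expression minimums, dim values set to the minimum, 16 added to each linear value as a constant, the brightest probe set of a gene, the mean in place of the median, and other fold thresholds. At 1.5-fold, 9 members were higher and 7 lower (17.8% and 23.4% of all genes), and at 3-fold 1 was higher and 1 lower (2.20% and 1.99%). The count of lower members was 1 with the array median as minimum and 1 with the constant added (10.7% and 8.04% of all genes). Higher members then numbered 4 and 3 (7.92% and 6.19% of all genes), and the median difference of members was 0.17 and 0.08. Under the remaining alternatives 4 or 5 members were higher (5.52% to 9.10% of all genes) and 2 or 3 lower (6.76% to 10.7%). The median difference of members was then 0.02 to 0.15. TNFSF15 ranged from 2.68 to 3.19, TNFSF10 from -2.38 to -2.26, TNFAIP3 from 1.43 to 1.59 and RELB from 1.10 to 1.30. TNFSF13 was -0.16 once dim values were set to the minimum and -0.80 with the constant. IKBKG was -0.97 after centring and -0.78 with the constant, and TNFAIP8 was 0.99 with the constant. Under the 3 scalings 8 of 51 members, with differences from -0.12 to 0, changed sign, among them FAS, LTBR and TNFRSF10A. No paired analysis was possible because each line has 1 array.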

Other observations

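Genomic order, taken from RefSeq (GRCh38.p14) for protein-coding genes only, was looked up for the 7 members past 2-fold with 3 neighbours on each side. On chromosome 9, TNFSF15 is followed by TNFSF8 and then by TNC, which encodes the matrix protein tenascin-C. TNC had 11.03 in the Y42C array and 8.36 in the wild-type array (6.36-fold higher), while TNFSF8, between them, was below the minimum in both arrays (3.87 in Y42C, 3.62 in wild-type). The next gene, PAPPA, was also below it (4.51 in Y42C, 4.83 in wild-type). On the other side TMEM268 had 8.15 in Y42C and 8.67 in wild-type.

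On chromosome 3, the direct neighbours of TNFSF10 did not share its difference, with NCEH1 at 10.31 in the Y42C array and 9.85 in the wild-type array and GHSR below the minimum in both. ECT2, the next gene beyond NCEH1, encodes an exchange factor that activates RHOA in cell division, and had 10.59 in Y42C and 11.90 in wild-type (2.48-fold lower). On chromosome 6, TNFAIP3 lies in the same stretch as IFNGR1, a subunit of the interferon-gamma receptor, which had 8.47 in Y42C and 9.32 in wild-type (1.80-fold lower), and as PERP, which was nearly equal (12.78 in Y42C, 12.86 in wild-type). On chromosome X, FAM3A, the second gene before IKBKG, had 5.78 in Y42C and 7.31 in wild-type (2.89-fold lower). None of the neighbours measured around RELB, TNFAIP8 and TNFSF13 was above the minimum and past 2-fold. TNC, ECT2 and FAM3A were thus the only neighbours looked up that were. Of all genes above the minimum 7.46% were that much higher and 9.80% that much lower, so these neighbours are not a result about the loci. Whether neighbours differ together was not tested.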
